A study of Danio rerio with 21 samples.

Results

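The COPII coat packages newly made secretory proteins into carriers that leave the endoplasmic reticulum (ER) for the Golgi. Assembly starts when the ER exchange factor Preb, also known as Sec12, loads the small GTPase Sar1 with GTP. Sar1 then recruits the inner coat, in which Sec23 stimulates GTP hydrolysis by Sar1 and Sec24 binds cargo, and Sec13 and Sec31 form the outer cage over it. Hepatocytes use this route for plasma proteins and lipoproteins. The COPII genes followed here were 10 genes chosen by name, out of 32520 genes in the count tables: the GTPase genes sar1ab and sar1b, the exchange factor gene preb, the inner coat genes sec23a, sec23b, sec24c and sec24d, and the outer coat genes sec13, sec31a and sec31b. All 10 matched a single gene identifier, and all 10 passed the filter on low counts.

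The study addressed how livers respond when COPII transport is reduced, and which transcription factors of the unfolded protein response or of lipid synthesis take part. RNA was sequenced from livers dissected from zebrafish larvae of the AB background at 7 days post-fertilization (dpf), in 7 genotypes with 3 libraries each. The double mutants were xbp1-/-;sec31anju221, atf6-/-;sec31anju221, atf4a-/-;atf4b-/-;sec31anju221, srebf1-/-;sec31anju221 and srebf2-/-;sec31anju221, below called the xbp1, atf6, srebf1 and srebf2 double mutants and the libraries labelled atf4a/b. They were set against sec31anju221, and sec31anju221 against wild type (WT). Every mutant genotype was homozygous for nju221, a gene-trap insertion in an intron of sec31a that leaves a fusion protein without the C-terminal part. The other genes carried CRISPR/Cas9 deletions. The allele is a hypomorph, and all alleles were carried in the whole animal rather than in the liver alone. The 5 comparisons of double mutants share the same sec31anju221 libraries.

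The 21 libraries held 9608400 to 23095746 counts, and depth differed by genotype. The xbp1 and atf6 double mutants and the libraries labelled atf4a/b held 9608400 to 11666806 counts. The other genotypes held 18918025 to 23095746. The spread between the 3 libraries of a genotype was hardly wider than random sampling of read pairs gives, with a variance between libraries of 1.79 to 1.87 times the mean count over genes of at least 50 counts. For genes of 2000 to 10000 counts it was 1.86 to 2.24. Dissections that varied with a 10% coefficient of variation would have given 36.5 to 38.9. The 3 libraries were therefore counted as 1 sample per genotype. Values per library show the precision of sequencing, no difference between genotypes has a replicate check, and no p-value is given. A gene was called higher or lower when the fitted difference passed 2-fold, and standard errors (SE) and 95% intervals cover counting error at the variance measured between libraries. Levels are given as CPM, in which each count is divided by its scaled library total. TMM scaling, used for this, sets libraries to a common level by the bulk of their genes. Gene lengths were not used, so levels are compared between genotypes and not between genes.

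The scaling matters most in 3 genotypes. In the xbp1 and atf6 double mutants and the libraries labelled atf4a/b, 21674 to 23458 genes had at least 1 CPM by library total, against 15396 to 15433 in sec31anju221. These were also the libraries with the fewest counts. The part of depth and of gene detection in their differences from sec31anju221 was not tested. When only the 5200 genes averaging 10 CPM or more set the TMM factors, every log2 difference from sec31anju221 moved by about 1.52 in the atf6 double mutant, 1.29 in the libraries labelled atf4a/b and 1.25 in the xbp1 double mutant. It moved by -0.11 in the srebf1 and -0.21 in the srebf2 double mutant, and by 0.10 between sec31anju221 and WT. Both scalings are given below where they differ, as all-gene scaling and high-expression scaling. Shares of reads between members of a pair do not depend on either.

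The disrupted genes were checked against the labels. xbp1 had 0.385 CPM in its double mutant, against 103.8 CPM in sec31anju221, and atf6 had 4.39 CPM in its own, against 327.7 CPM. srebf2 had 1.001 CPM in its own, against 4.45 CPM. srebf1 had 0.457 CPM in its own, against 1.58 CPM, but it was as low in the srebf2 double mutant, at 0.407 CPM, so its level does not tell these genotypes apart. In the libraries labelled atf4a-/-;atf4b-/-;sec31anju221, atf4a had 12.6 CPM, against 6.41 CPM in sec31anju221, and atf4b had 131.9 CPM, against 88.4 CPM. Neither transcript was lower there, although the authors report from qPCR that embryos of each knockout line lacked the mRNA in question. Counts were totals per gene, and whether the reads fell within the deleted stretches was not tested. These levels therefore do not bear out the label, nor do they show that it is wrong. The samples are called the libraries labelled atf4a/b, and any count of double mutants that takes them in rests on that label. The 12 hepatocyte markers, among them fabp10a, tfa and apoa2, were detected in every genotype, with a summed level by library total of 113600 to 209300 CPM over the double mutants, 140800 to 144400 CPM in sec31anju221 and 314100 to 317400 CPM in WT. apoa2 made up most of each sum, at 28.18% of all counts in WT, 11.54% in sec31anju221 and 8.55% to 15.5% in the double mutants. Between sec31anju221 and WT the sums therefore mostly follow that gene. They did not do so in every double mutant. In the srebf2 double mutant the sum averaged 202100 CPM and apoa2 128700 CPM, against 143000 and 115400 CPM in sec31anju221. In the libraries labelled atf4a/b the sum was 147100 CPM and apoa2 107300 CPM, so the 2 went in opposite directions. In the atf6 double mutant the 9 matched markers of exocrine pancreas summed to 1622 to 1659 CPM. They summed to 459.9 to 472.6 CPM in the srebf1 and 21.9 to 38.6 CPM in the xbp1 and srebf2 double mutants. The libraries labelled atf4a/b had 64.2 to 72.6 CPM, sec31anju221 had 76.3 to 78.4 CPM and WT had 950.6 to 969.9 CPM. The 5 matched markers of intestine summed to 671.3 to 4783 CPM in the double mutants, 6549 to 6580 CPM in sec31anju221 and 4269 to 4375 CPM in WT, and 1 of them was at 0 in the srebf2 double mutant. None of the other markers of these lists was at 0. Their part in the differences below was not tested. In bulk livers, fewer cells of a type and less RNA per cell cannot be told apart.

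In sec31anju221 livers, reads from the disrupted gene sec31a were lower and those of 3 other COPII genes higher. Transcripts of sec13, sar1b and sec31b were 6.58-fold, 4.77-fold and 4.21-fold higher than in WT. sec31a stood at 0.136 of its WT level. The other 6 genes, among them both sec23 genes and sar1ab, stayed within 2-fold of WT with all-gene scaling. Over the 30792 genes tested, 21.3% were higher by over 2-fold and 14.0% were lower, against 3 higher and 1 lower of the 10 COPII genes. The median log2 difference was 0.25 over the COPII genes and 0.18 over all genes tested. The same 4 genes passed 2-fold with high-expression scaling. With the library total alone, 5 COPII genes were higher and the median log2 difference was 0.90.

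**Figure D1:**
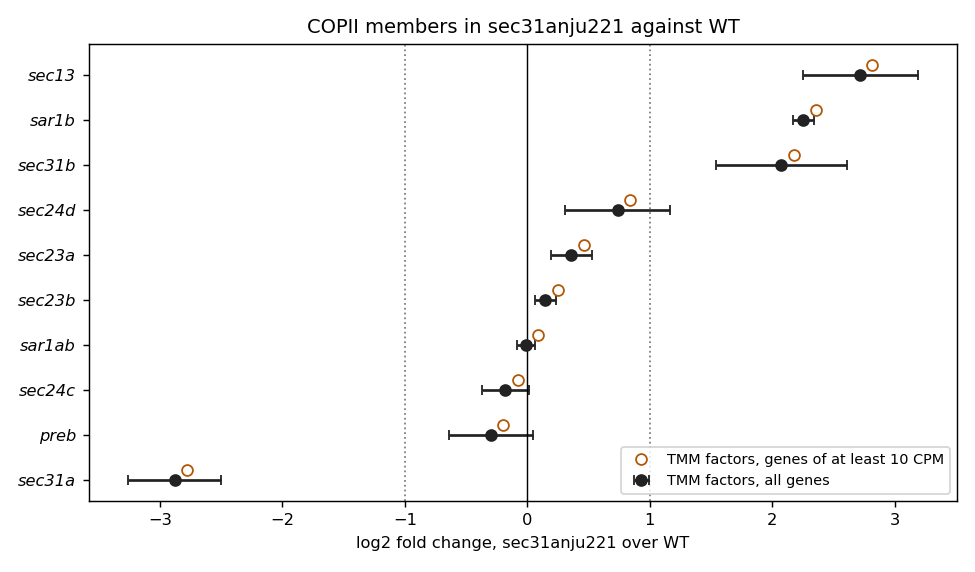
Log2 fold change of the 10 COPII genes in sec31anju221 over WT (x axis), 1 row per gene. Filled points use all-gene scaling with 95% counting intervals, open circles use high-expression scaling, and dotted lines mark 2-fold. sec13 (2.72), sar1b (2.25) and sec31b (2.08) lie to the right of 2-fold and sec31a (-2.88) to the left of it.

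The outer coat held the widest spread. sec31a (ENSDARG00000021082), which encodes the rod-forming outer coat subunit and carries the insertion, had 2.62, 2.62 and 2.69 CPM in the sec31anju221 libraries, against 19.4, 19.4 and 19.6 CPM in WT. The libraries of the genotypes lay far apart, with a log2 difference of -2.88 (SE 0.19). These were 41 or 42 reads per mutant library and 216 to 220 per WT library, and a count per gene does not show which exons the remaining reads came from. sec31b (ENSDARG00000002916), which encodes the second Sec31 subunit, had 7.66, 7.34 and 8.06 CPM in sec31anju221, against 1.43, 1.88 and 2.14 CPM in WT. Every mutant library was above every WT library, with a log2 difference of 2.08 (SE 0.27). The WT level rested on 16 to 24 reads per library.

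Reads of sec31a and sec31b together came to 10.3 CPM in sec31anju221, against 21.3 CPM in WT. The sum was lower in the mutant although sec31b was higher. By library total alone, sec31a averaged 2.01 CPM in sec31anju221, against 9.44 CPM in WT, and sec31b 5.85 CPM, against 0.88 CPM. Their sum was lower there too, but by less, so the size of this gap depends on the scaling. sec31b took 74.4% of the reads of the pair in sec31anju221 (361 of 485 reads; exact 95% interval 70.3% to 78.3%), against 8.54% in WT (61 of 714 reads, 6.60% to 10.8%). These intervals treat reads as independent and are too narrow by a factor of about 1.34 to 1.37, the square root of the variance ratio above.

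sec13 (ENSDARG00000054807) encodes the partner that binds Sec31 in the cage and that also serves in the nuclear pore. It had 13.4, 16.2 and 14.6 CPM in sec31anju221, against 2.33, 1.97 and 2.41 CPM in WT. All mutant libraries lay above all WT libraries, with a log2 difference of 2.72 (SE 0.24), the largest among the higher genes. Since Sec13 and Sec31 work as a pair, the ratio of their reads was also computed, a measure added after the levels were seen. There were 1.43 sec13 reads for each sec31a or sec31b read in sec31anju221, against 0.105 in WT.

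The Sar1 GTPases diverged from each other. sar1b (ENSDARG00000103403), whose human counterpart is required for chylomicron secretion, had 323.8, 325.6 and 334.2 CPM in sec31anju221, against 70.5, 68.0 and 67.8 CPM in WT. The libraries did not overlap, and the log2 difference was 2.25 (SE 0.04). sar1ab (ENSDARG00000033320) encodes another Sar1 GTPase. It had 128.2, 130.2 and 133.7 CPM in sec31anju221, against 128.1, 132.5 and 134.7 CPM in WT. The libraries of the genotypes overlapped, and the 95% counting interval of the log2 difference ran from -0.09 to 0.07. By library total alone, sar1ab averaged 99.5 CPM in sec31anju221, against 63.9 CPM in WT, so this likeness depends on the scaling. sar1b accordingly took 71.5% of the reads of the pair in sec31anju221 (70.9% to 72.1%), against 34.3% in WT (33.2% to 35.5%).

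preb (ENSDARG00000101602), which encodes the exchange factor for Sar1, had 4.73, 6.89 and 5.82 CPM in sec31anju221, against 9.76, 5.47 and 6.24 CPM in WT. The libraries overlapped, with a log2 difference of -0.30 (95% counting interval -0.64 to 0.04). For every read of the Sar1 pair there were 0.0127 preb reads in sec31anju221, against 0.0357 in WT.

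The inner coat differed less. sec23b (ENSDARG00000019360), whose human counterpart is mutated in a congenital anaemia, had 104.5, 105.1 and 113.9 CPM in sec31anju221, against 101.1, 91.8 and 99.1 CPM in WT. Its log2 difference was 0.15 (SE 0.04). sec23a (ENSDARG00000104230) had 32.5, 33.2 and 27.7 CPM in sec31anju221, against 26.9, 23.0 and 22.9 CPM in WT, a log2 difference of 0.36 (SE 0.09). For both Sec23 genes the mutant libraries lay above the WT libraries, within 2-fold with all-gene scaling. The cargo adaptor gene sec24d (ENSDARG00000045946) had 5.36, 6.51 and 5.43 CPM in sec31anju221, against 3.31, 3.49 and 3.57 CPM in WT. These libraries did not overlap, but the log2 difference of 0.74 (95% counting interval 0.31 to 1.17) reached past 2-fold only at its upper end. sec24c (ENSDARG00000103516), which encodes another Sec24 adaptor, had 19.6, 19.4 and 18.5 CPM in sec31anju221, against 23.1, 21.7 and 20.4 CPM in WT. Its log2 difference was -0.18 (95% counting interval -0.37 to 0.01). By library total alone, sec23a averaged 23.7 CPM in sec31anju221, against 11.8 CPM in WT, and sec24d averaged 4.39 CPM, against 1.68 CPM. Both passed 2-fold there, so the small size of their differences depends on the scaling.

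Paralog use within the inner coat also differed little for Sec23. sec23b took 77.6% of the reads of the Sec23 pair in sec31anju221 and 80.1% in WT. sec24d took 23.1% of the sec24c and sec24d reads in sec31anju221 (20.7% to 25.7%), against 13.7% in WT (11.5% to 16.2%).

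**Figure D2:**
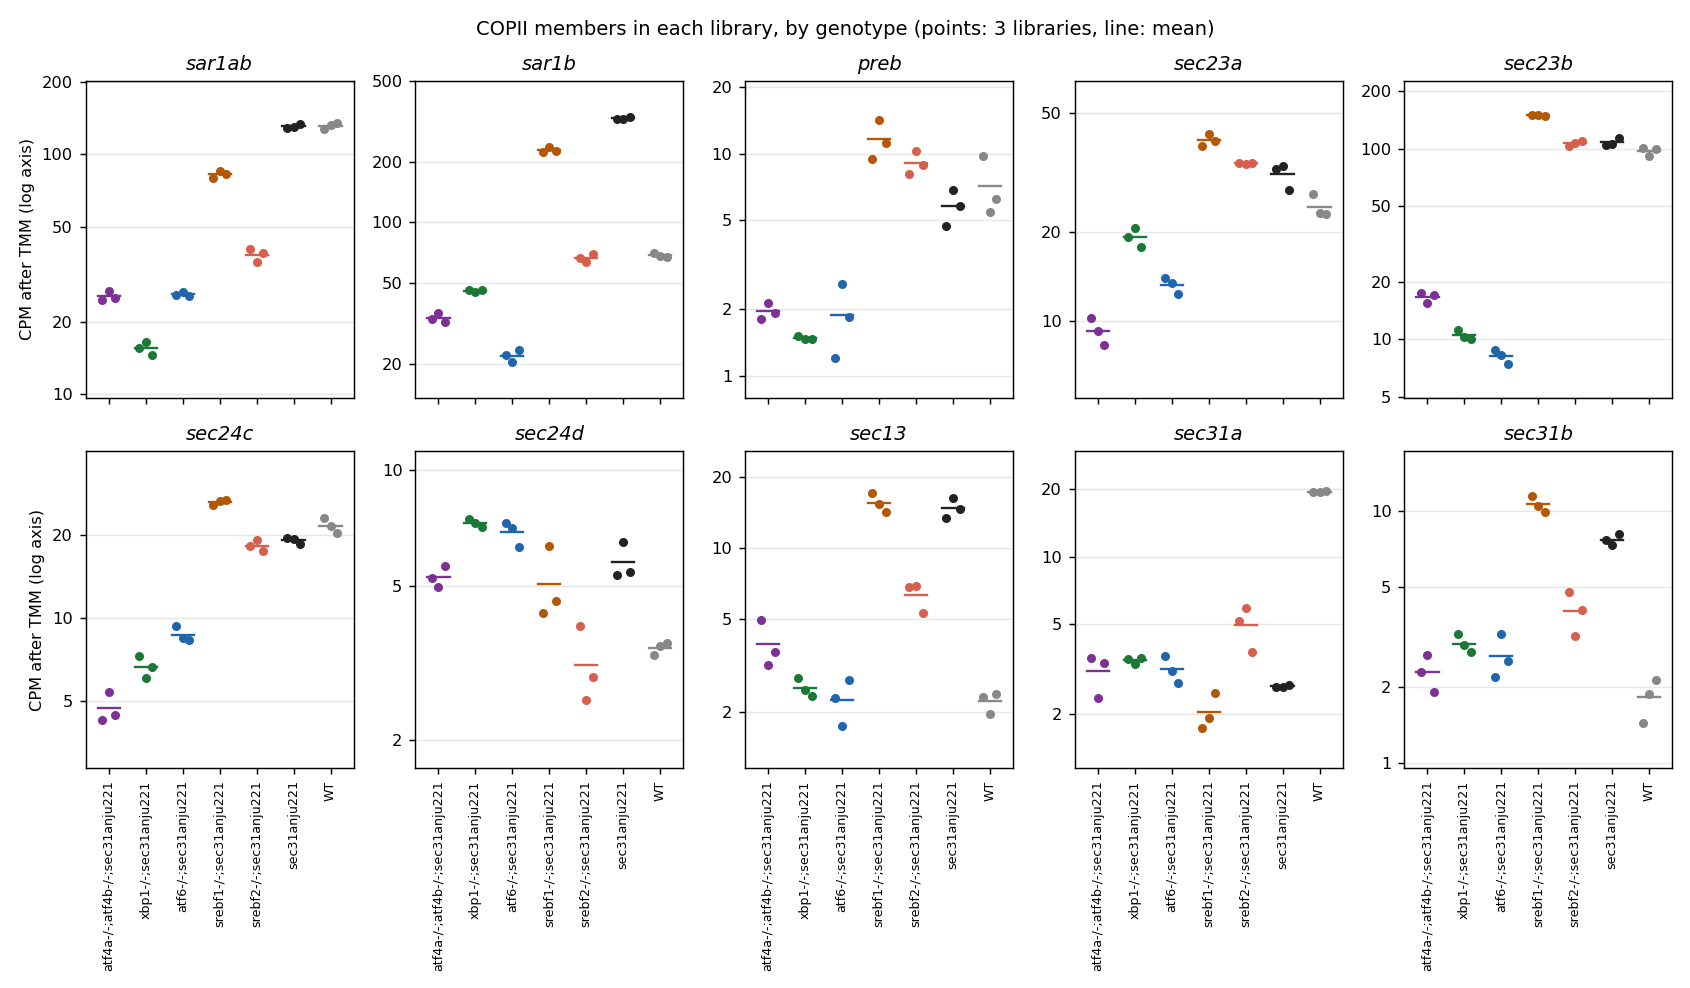
CPM after all-gene TMM scaling (log axis) of each COPII gene, 1 panel per gene, with 1 point per library and a line at the mean of the 3 libraries of each genotype. In sec31anju221 sec31a stands at 2.64 CPM, against 19.5 CPM in WT, while sar1b stands at 327.9 CPM, against 68.8 CPM.

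The double mutants were next compared with sec31anju221 to see how COPII transcripts stood when a transcription factor was also disrupted. In the srebf1 double mutant none of the 10 genes passed 2-fold under either scaling, though preb lay at the limit and passed it in several alternative fits. In the others sar1b was lower by over 2-fold under both scalings. Shares of all genes past 2-fold are given with each comparison below. sec23b was lower by over 2-fold under both scalings in the libraries labelled atf4a/b and the xbp1 and atf6 double mutants, and sec13 in the xbp1, atf6 and srebf2 double mutants. sar1ab was lower under both in the xbp1 and srebf2 double mutants and the libraries labelled atf4a/b. No COPII gene was higher by over 2-fold under both scalings in any double mutant.

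In the xbp1 double mutant 7 of the 10 genes were lower by over 2-fold and 0 higher, where 19.0% of all genes tested were lower and 15.8% higher. Among genes averaging 1 CPM or more, 26.5% were lower and 7.06% higher. With high-expression scaling 4 were lower and 2 higher, where 5.43% of the 18310 genes averaging 1 CPM or more were lower and 55.7% higher. sec23b had 11.2, 10.3 and 10.03 CPM in the xbp1 double mutant, against 104.5, 105.1 and 113.9 CPM in sec31anju221. This was the widest gap of the 10 genes there, with a log2 difference of -3.36 (SE 0.08), or -2.11 with high-expression scaling. sar1ab had 15.6, 16.5 and 14.5 CPM, against 128.2, 130.2 and 133.7 CPM in sec31anju221, a log2 difference of -3.07 (-1.82 with high-expression scaling). sar1b had 46.3, 45.3 and 46.1 CPM, against 323.8, 325.6 and 334.2 CPM in sec31anju221, a log2 difference of -2.84 (-1.58). sec13 had 2.80, 2.48 and 2.35 CPM, against 13.4, 16.2 and 14.6 CPM, a log2 difference of -2.53 (-1.28). In all 4 genes the libraries of the genotypes lay well apart. preb, sec24c and sec31b were lower by over 2-fold with all-gene scaling alone, at log2 differences of -1.97, -1.53 and -1.37, and these were -0.72, -0.28 and -0.12 with high-expression scaling. sec24d and sec31a went the other way, with 0.34 and 0.39 under all-gene scaling and 1.59 and 1.64 under high-expression scaling. sec23a changed direction with the scaling, from -0.70 to 0.56.

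The atf6 double mutant gave 8 of 10 genes lower by over 2-fold and 0 higher, where 22.1% of all genes tested were lower and 19.9% higher. Among genes averaging 1 CPM or more, 30.0% were lower and 10.8% higher. With high-expression scaling 3 were lower and 2 higher, where 7.79% of the genes averaging 1 CPM or more were lower and 60.6% higher. The 2 higher genes were sec31a, at 6.28 CPM by that scaling, against 1.84 CPM in sec31anju221, and sec24d, at 13.8 CPM, against 4.02 CPM. sar1b had 22.2, 20.4 and 23.3 CPM in the atf6 double mutant, against 323.8, 325.6 and 334.2 CPM in sec31anju221. This log2 difference of -3.90 (SE 0.06) was the largest of any COPII gene in any comparison, and it was -2.38 with high-expression scaling. sec23b had 8.84, 8.33 and 7.44 CPM, against 104.5, 105.1 and 113.9 CPM in sec31anju221, a log2 difference of -3.72 (-2.20). sec13 had 2.30, 1.75 and 2.75 CPM, against 13.4, 16.2 and 14.6 CPM, a log2 difference of -2.70 (-1.19). Here the sec13 level rested on 35 to 55 reads per library. sar1ab differed less than sar1b, with 26.0, 26.8 and 25.8 CPM, against 128.2, 130.2 and 133.7 CPM in sec31anju221, a log2 difference of -2.32 (-0.80). sec23a and sec24c had log2 differences of -1.23 and -1.14 with all-gene scaling, and of 0.29 and 0.38 with high-expression scaling, so their direction was not settled.

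In the libraries labelled atf4a/b, 8 of 10 genes were lower by over 2-fold and 0 higher, where 21% of all genes tested were lower and 19.0% higher. Among genes averaging 1 CPM or more, 27.6% were lower and 10.5% higher. With high-expression scaling 3 were lower and 2 higher, where 10.1% of the genes averaging 1 CPM or more were lower and 57.4% higher. sar1b had 33.4, 35.7 and 32.0 CPM in these libraries, against 323.8, 325.6 and 334.2 CPM in sec31anju221, a log2 difference of -3.28 (-1.995 with high-expression scaling). sec23b had 17.5, 15.5 and 17.1 CPM, against 104.5, 105.1 and 113.9 CPM, a log2 difference of -2.69 (-1.41). sar1ab had 24.8, 27.0 and 25.3 CPM, against 128.2, 130.2 and 133.7 CPM, a log2 difference of -2.35 (-1.06). In these 3 genes no library of one genotype came near those of the other. sec13 was at 4.92, 3.17 and 3.62 CPM, against 13.4, 16.2 and 14.6 CPM in sec31anju221, and its log2 difference of -1.92 stayed within 2-fold, at -0.63, with high-expression scaling.

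The srebf2 double mutant gave 3 of 10 genes lower by over 2-fold and 0 higher, where 34.0% of all genes tested were lower and 15.3% higher. Among genes averaging 1 CPM or more, 27.2% were lower and 16.3% higher. The 3 genes were both Sar1 genes and sec13, and with high-expression scaling sec31b (-1.15) and sec24d (-1.09) joined them, where 33.5% of the genes averaging 1 CPM or more were lower and 12.9% higher. sar1b had 66.9, 63.5 and 69.8 CPM in the srebf2 double mutant, against 323.8, 325.6 and 334.2 CPM in sec31anju221. Its log2 difference was -2.30 (SE 0.05), and its level was close to the 70.5, 68.0 and 67.8 CPM of WT. sar1ab had 40.2, 35.6 and 38.7 CPM, against 128.2, 130.2 and 133.7 CPM in sec31anju221, a log2 difference of -1.78 (SE 0.06). For sec13 the libraries had 6.84, 6.86 and 5.27 CPM, against 13.4, 16.2 and 14.6 CPM, a log2 difference of -1.22 (SE 0.16). The Sec23 genes and sec24c stayed near sec31anju221, with log2 differences of -0.02 for sec23b, 0.12 for sec23a and -0.06 for sec24c. sec31a had 5.15, 5.92 and 3.76 CPM, against 2.62, 2.62 and 2.69 CPM in sec31anju221, a log2 difference of 0.90 (95% counting interval 0.44 to 1.37).

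In the srebf1 double mutant 0 of the 10 genes were lower and 0 higher by over 2-fold, where 21% of all genes tested were lower and 16.0% higher. Among genes averaging 1 CPM or more, 16.3% were lower and 13.3% higher. preb came nearest, with 9.42, 14.1 and 11.2 CPM in the srebf1 double mutant, against 4.73, 6.89 and 5.82 CPM in sec31anju221. Its libraries did not overlap, and the log2 difference was 0.99 (95% counting interval 0.70 to 1.28). This gene passed 2-fold once sec31anju221 library 2, or library 1 or 3 of the srebf1 double mutant, was left out. sar1ab (-0.66) and sar1b (-0.52) were lower within 2-fold, and sec23b (0.47), sec24c (0.47), sec31b (0.47) and sec23a (0.38) higher within it. sec13 had 17.1, 15.3 and 14.2 CPM, against 13.4, 16.2 and 14.6 CPM in sec31anju221, so its libraries overlapped and its level stayed near that of sec31anju221.

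**Figure D3:**
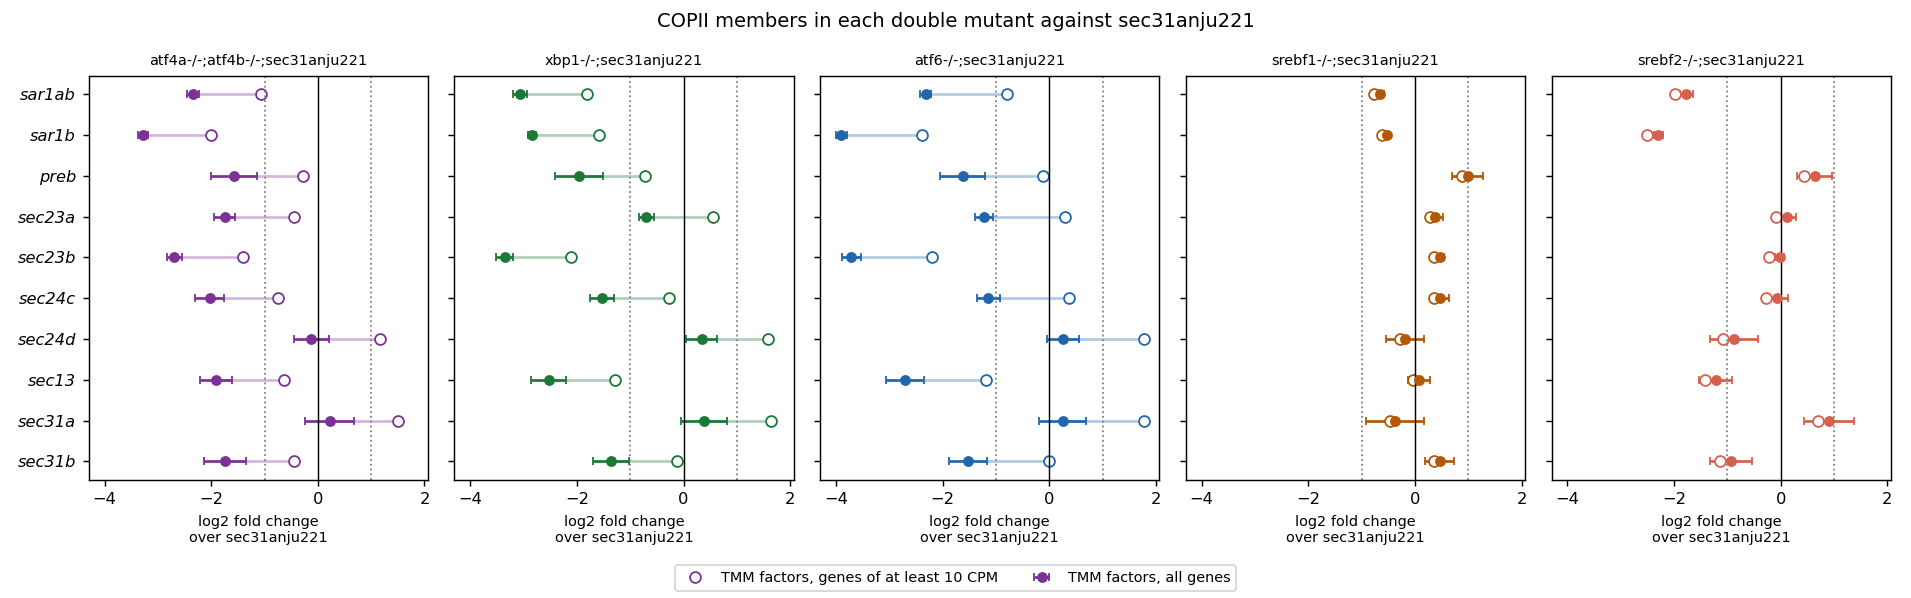
Log2 fold change of each COPII gene in the 5 double mutants over sec31anju221 (x axis), 1 panel per double mutant. Filled points use all-gene scaling with 95% counting intervals, open circles use high-expression scaling, and dotted lines mark 2-fold. sar1b lies left of 2-fold under both scalings in the panels for atf4a/b, xbp1, atf6 and srebf2, and no gene passes 2-fold in the panel for srebf1.

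Shares of reads within a pair, which need no scaling, differed between the double mutants and sec31anju221. By library total the median gene tested had 3.42 to 3.54 CPM in the xbp1 and atf6 double mutants. It had 2.486 to 2.495 CPM in the libraries labelled atf4a/b, against 0.997 to 1.022 CPM in sec31anju221. The part of this in the shares and ratios below was not tested. The Sec23 pair gave the sharpest contrast. sec23b took 35.4% of its reads in the xbp1 double mutant (33.3% to 37.5%), 38.2% in the atf6 double mutant (35.5% to 40.9%) and 64.2% in the libraries labelled atf4a/b (61.7% to 66.7%). Its share was 78.6% in the srebf1 and 75.8% in the srebf2 double mutant, against 77.6% in sec31anju221 (76.6% to 78.6%). The intervals of the xbp1 and atf6 double mutants and of the libraries labelled atf4a/b lay below those of the other 4 genotypes.

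sec24d took 52.4% of the sec24c and sec24d reads in the xbp1 double mutant (49.1% to 55.6%), 44.2% in the atf6 double mutant (41.0% to 47.5%) and 53.0% in the libraries labelled atf4a/b (48.7% to 57.3%). It took 16.1% in the srebf1 and 14.6% in the srebf2 double mutant, against 23.1% in sec31anju221 (20.7% to 25.7%). The 3 genotypes with the largest number of detected genes were those with the largest sec24d share, and the part of gene detection in this was not tested. Levels of sec24d were 7.31 CPM in the xbp1 and 6.90 CPM in the atf6 double mutant, against 5.77 CPM in sec31anju221, while sec24c had 6.64 and 8.70 CPM there, against 19.2 CPM.

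sec31b took 46.2% of the Sec31 reads in the xbp1 double mutant (41.5% to 51.0%), 45.9% in the atf6 (40.5% to 51.2%) and 44.8% in the srebf2 double mutant (38.9% to 50.7%). It took 42.7% in the libraries labelled atf4a/b (37.0% to 48.6%), against 74.4% in sec31anju221 (70.3% to 78.3%). The intervals of these 4 genotypes overlapped each other and lay below that of sec31anju221 and above that of WT (6.60% to 10.8%). In the srebf1 double mutant the share was 83.9% (80.6% to 86.9%).

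sar1b took 74.7% of the reads of the Sar1 pair in the xbp1 double mutant (73.4% to 76.0%) and 73.5% in the srebf1 double mutant (72.8% to 74.3%), against 71.5% in sec31anju221. Its share was 63.6% in the srebf2 double mutant (62.0% to 65.2%), 56.8% in the libraries labelled atf4a/b (55.1% to 58.5%) and 45.6% in the atf6 double mutant (43.8% to 47.5%). Both Sar1 genes were thus lower to a like degree in the xbp1 double mutant, whereas sar1b differed more than sar1ab in the atf6 double mutant.

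**Figure D4:**
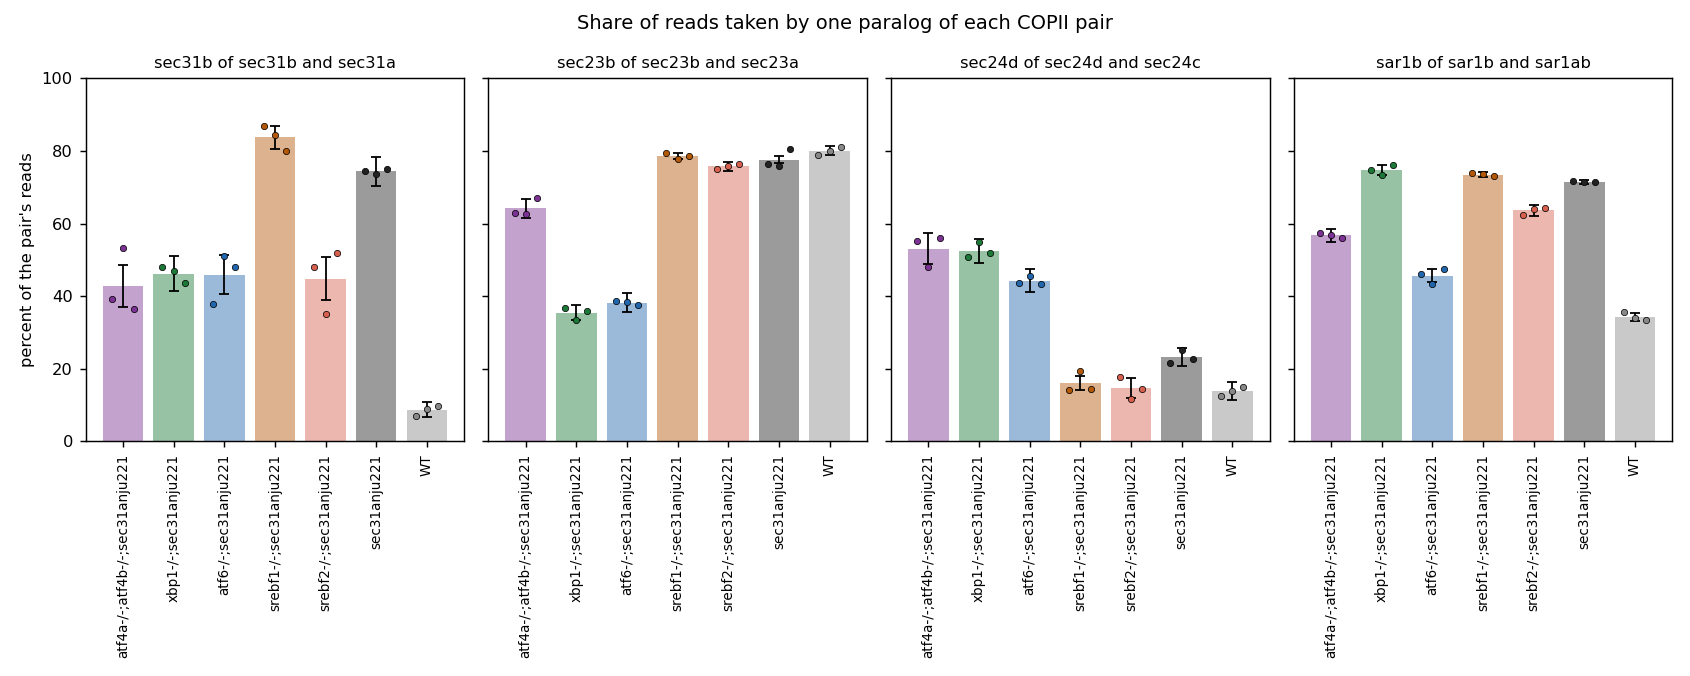
Percent of the reads of each pair taken by 1 of its genes (y axis, from 0 to 100%), by genotype. Bars are the share over the summed reads of the 3 libraries, points are single libraries, and error bars are exact 95% binomial intervals for counting error only. sec31b takes 74.4% of the Sec31 reads in sec31anju221, against 8.54% in WT, and sec23b takes 35.4% of the Sec23 reads in the xbp1 double mutant, against 77.6% in sec31anju221.

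Ratios between the reads of different COPII genes also need no scaling. sec13 reads per Sec31 read were 0.395 in the xbp1, 0.390 in the atf6, 0.706 in the srebf2 and 1.23 in the srebf1 double mutant and 0.725 in the libraries labelled atf4a/b, against 1.43 in sec31anju221. All of them were above the 0.105 of WT. Reads of the Sar1 pair per read of the Sec23 pair stood at 3.30 in sec31anju221, the highest of the 7 genotypes, and at 1.65 in WT. The double mutants had 2.28 (libraries labelled atf4a/b), 2.24 (atf6), 2.07 (xbp1), 1.64 (srebf1) and 0.747 (srebf2). The value of the srebf2 double mutant was the lowest of the 7 genotypes.

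The rank of a gene within its library, a measure added after the levels were seen, gave each gene a place among the 30792 genes tested. sec31a stood at the 64.3 percentile in sec31anju221, at the 60.7 to 74.0 percentile in the double mutants and at the 87.4 percentile in WT. sec13 stood at the 85.6 percentile in the srebf1 double mutant and the 85.5 percentile in sec31anju221, and at the 57.8 to 76.5 percentile in the other double mutants and the 62.4 percentile in WT. sec23b stood at the 86.7 to 92.5 percentile in the atf6 and xbp1 double mutants and the libraries labelled atf4a/b, and at the 95.8 to 97.0 percentile in the other 4 genotypes. The place of a gene also depends on how many other genes were detected.

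Other COPII genes were taken from a list of 12 coat and ER exit site genes, of which 9 were matched. In sec31anju221 4 of the 9 were higher than in WT by over 2-fold and 0 lower, beside 21.3% and 14.0% of all genes tested. The median log2 difference was 0.95, and 0.18 over all genes tested. With high-expression scaling 6 of the 9 were higher, beside 23.6% of all genes tested. tfg, which encodes a protein that gathers at ER exit sites, had 45.1 CPM in sec31anju221, against 3.67 CPM in WT (log2 difference 3.62, SE 0.18). sec23ip, whose product links Sec23 to Sec31, had 79.4 CPM, against 15.2 CPM in WT (2.38, SE 0.09). The other 2 were the cargo receptor gene mia2, with 16.0 CPM, against 7.27 CPM, and the exit site scaffold gene sec16b, with 8.64 CPM, against 3.61 CPM. sec24a and sec24b, which encode the remaining Sec24 adaptors, had log2 differences of 0.95 and 0.94, and passed 2-fold with high-expression scaling (1.05 and 1.04). mia3, pdcd6 and pef1 stayed within 2-fold of WT. The last 2 encode a calcium sensor that binds Sec31 and its partner.

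In the double mutants, tfg had 5.28 CPM in the xbp1 double mutant, 4.23 CPM in the atf6 double mutant and 7.52 CPM in the libraries labelled atf4a/b, against 45.1 CPM in sec31anju221. sec23ip had 10.1, 6.94 and 10.1 CPM in the same order, against 79.4 CPM in sec31anju221. Both were lower by over 2-fold in these 3 genotypes under both scalings. Of the 9 genes, 8 were lower by over 2-fold in each of these 3 genotypes with all-gene scaling, where 19.0% (xbp1), 22.1% (atf6) and 21% (labelled atf4a/b) of all genes tested were lower. Of the genes averaging 1 CPM or more, 26.5%, 30.0% and 27.6% were lower in the same order. With high-expression scaling 2, 2 and 3 of them were lower in the same order, where 5.43%, 7.79% and 10.1% of the genes averaging 1 CPM or more were lower. sec24a had 2.79 CPM in the libraries labelled atf4a/b, against 15.1 CPM in sec31anju221, and was the third gene there. mia2 had 23.3 CPM in those libraries, against 16.0 CPM, and was higher by over 2-fold with high-expression scaling. In the srebf2 double mutant sec23ip (33.1 CPM) and sec16b (4.01 CPM) were lower by over 2-fold. In the srebf1 double mutant sec24a was higher, with 30.2 CPM, against 15.1 CPM in sec31anju221 (log2 difference 1.01, and 0.90 with high-expression scaling).

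Creb3 family factors are membrane-bound regulators of secretory genes, and Creb3l2 is known to activate Sec23a in mouse cartilage cells. Of 5 listed genes 4 were matched. creb3l2 had 5.24 CPM in sec31anju221, against 20.7 CPM in WT (log2 difference -1.98, SE 0.15). Between sec31anju221 and WT its direction was thus opposite to that of sec13, sar1b and sec31b. It had 4.41 CPM in the xbp1, 10.4 CPM in the atf6, 13.8 CPM in the srebf1 and 20.5 CPM in the srebf2 double mutant and 23.0 CPM in the libraries labelled atf4a/b. With high-expression scaling it had 7.32 CPM in the xbp1 and 20.7 CPM in the atf6 double mutant. By that scaling it had 39.0 CPM in the libraries labelled atf4a/b, against 3.65 CPM in sec31anju221. In the xbp1 double mutant the direction of creb3l2 thus changed with the scaling. creb3l3a, which encodes the hepatic factor CREBH, had 80.8 CPM in sec31anju221, against 28.4 CPM in WT (1.51, SE 0.07). It was lower than in sec31anju221 by over 2-fold in every double mutant under both scalings, from 36.3 CPM in the srebf1 to 2.91 CPM in the atf6 double mutant. creb3l3b had 12.2 CPM in the srebf2 double mutant, against 3.77 CPM in sec31anju221 (log2 difference 1.69).

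The genes whose levels followed each Sec31 gene most closely were sought among 6507 genes, by Pearson's r of log2 CPM over the 7 genotypes. For sec31a these were pm20d1.1 (r = 0.99), rgcc (0.98) and cldn15la (0.97). pm20d1.1 had 0.767 CPM in sec31anju221, against 19.6 CPM in WT, and 0.618 to 1.72 CPM over the double mutants. By Spearman's rho pm20d1.1 also came first, while rgcc took place 37 and cldn15la place 9. For sec31b they were dpagt1 (r = 0.98), which encodes the enzyme that starts the lipid-linked N-glycan, srbd1 (0.97) and ube2j1 (0.97), which encodes a ubiquitin-conjugating enzyme of ER-associated degradation. dpagt1 had 57.7 CPM in sec31anju221, against 2.59 CPM in WT, and ranked the 7 genotypes in the same order as sec31b. ube2j1 had 58.0 CPM in sec31anju221, against 0.507 CPM in WT. These correlations are descriptions over 7 points that share the scaling, and a single genotype far from the rest, such as WT for sec31a, can set them.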

How the data were processed

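Livers of 7 dpf larvae were sequenced in 21 low-input libraries. Per the submitters' processing notes, reads were checked with FastQC 0.11.9, mapped to GRCz11 with HISAT2 2.1.0, handled with SAMtools 1.10 and counted with featureCounts 1.6.0. The deposited files hold raw counts for each gene. The strand setting, the annotation release and the handling of multi-mapping reads are not given in the sources used here, so counts of paralogs and overlapping genes are uncertain. The authors tested them with DESeq2 after leaving out genes with under 10 normalized counts.

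Counts were fitted in R 4.3.3 with edgeR 4.0.16 (TMM scaling, quasi-likelihood fit over all 21 libraries, 1 term per genotype), for the 30792 genes with a scaled total of at least 10. The fit of sec31anju221 against WT was tested on simulated data whose genotypes shared mean levels apart from a set of changed genes. That did not test the choice of scaling or the comparisons of double mutants. As libraries of a genotype counted as 1 sample, fold changes were used without p-values, and exact binomial intervals were computed for shares of reads at a confidence of 95%. They cover counting error only. The members and lists were chosen with earlier results of these data known. Named genes were the 10 members, genes of the other lists past 2-fold with a mean of at least 10 CPM in a genotype, creb3l2 and sec16b, and the 3 genes most like sec31a and sec31b. A list of COPII vesicle tethers (13 of 14 matched) stands in the closing section. sec16a, sar1aa, creb3 and rab1ab had no match, and klhl12 had several. Alternatives were DESeq2 1.42.0, other size factors, filters, fold limits, a replicate block, fits to the 6 libraries compared and each library left out. Summed libraries, the ratio of sec13 to Sec31 reads and percentiles were added after the data were seen. The summed Sec31 level and the ratios of preb to Sar1 and of Sar1 to Sec23 reads were not planned either. No coordinates or sequences are given.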

Additional observations from a re-analysis of the deposited data

How the results depend on the processing

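Of the counts of COPII genes past 2-fold, 183 settings gave a count within 1.5 times the reported one and 33 did not. Of the single log2 fold changes, 836 stayed within their 95% counting interval and 119 did not, and 5 of those past 2-fold changed sign. Most of the shifts came from the scaling. With the library total alone, 5 COPII genes were higher in sec31anju221 than in WT, with a median log2 difference of 0.90. The median gene was then also higher. In the xbp1 double mutant 2 were then higher and 4 lower, as with factors from genes of at least 10 CPM, and the median was -0.30 (-0.50 with the latter factors). sec31b turned to 0.083 there with the library total. In the atf6 double mutant both scalings gave 2 higher and 3 lower, with medians of -0.13 (total) and -0.06 (genes of at least 10 CPM), and sec23a turned to 0.22 and 0.29 and sec24c to 0.31 and 0.38. In the libraries labelled atf4a/b, 1 (total) or 2 (genes of at least 10 CPM) were higher and 3 lower under both, and the median was -0.79 and -0.54, or -1.57 with upper-quartile factors. In the srebf2 double mutant both scalings gave 5 lower, and the median was -0.91 with the library total. A limit of 3-fold left 5 lower in the atf6 double mutant, and a limit of 1.5-fold gave 2 higher and 5 lower in the srebf2 and 1 higher and 1 lower in the srebf1 double mutant. preb was 1 higher gene in the srebf1 double mutant with RLE factors, upper-quartile factors, the 6 libraries alone, DESeq2 or summed libraries. In the srebf2 double mutant 1 was higher with RLE factors, the 6 libraries alone or DESeq2. The cause of these shifts beyond the factors was not tested.

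Leaving out single libraries gave 0 to 1 higher genes in the srebf1 double mutant, and 0 to 1 higher (1 without its library 3) and 3 to 5 lower (5 without its library 1) in the srebf2 double mutant. The sec23b share in sec31anju221 ranged from 76.1% (without library 3) to 78.4%. Same-numbered libraries did not deviate together, with correlations of -0.09 to 0.07 over 63 pairs of libraries. As libraries of a genotype differed by little more than sampling noise, this could not show whether the numbers pair the samples. With a replicate block the counts were as reported, for example 3 higher and 1 lower in sec31anju221 with a median of 0.25. Under 100 reads per library limit the precision of several fold changes. This held for sec31a in every mutant, and for sec31b and sec13 in WT. It also held for sec31b and sec13 in the xbp1, atf6 and srebf2 double mutants and the libraries labelled atf4a/b. preb was as low in the xbp1 and atf6 double mutants and the libraries labelled atf4a/b, and sec24c in the latter. sec24d was so in WT and the srebf1 and srebf2 double mutants, and preb and sec24d in some libraries of other genotypes.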

Other observations

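Tethers that receive COPII vesicles at the Golgi were followed as a further list of 14 genes, of which 13 were matched. In sec31anju221 4 were higher than in WT by over 2-fold and 0 lower, beside 21.3% and 14.0% of all genes tested. uso1, which encodes the long coiled-coil tether p115, had 252.1 CPM in sec31anju221, against 92.1 CPM in WT (log2 difference 1.45, SE 0.04). trappc2l and trappc6a, which encode subunits of the TRAPP tethering complexes, had 207.9 and 28.2 CPM in sec31anju221, against 86.3 and 9.39 CPM in WT. The remaining one, rab1aa, had 0.362 CPM in sec31anju221, against 0.0894 CPM in WT, too few reads to read a fold from. trappc4, which encodes another TRAPP subunit, had 450.5 CPM in sec31anju221, against 346.5 CPM, within 2-fold.

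In the double mutants uso1 had 26.9 CPM in the xbp1 double mutant, 38.8 CPM in the atf6 double mutant and 44.7 CPM in the libraries labelled atf4a/b, against 252.1 CPM in sec31anju221, and was lower by over 2-fold under both scalings in all 3. It stayed within 2-fold in the srebf1 (186.9 CPM) and srebf2 (203.3 CPM) double mutants. rab1ba, which encodes a Rab1 GTPase, had 28.1 CPM in the libraries labelled atf4a/b and 25.9 CPM in the srebf2 double mutant, against 8.54 CPM in sec31anju221, and was higher by over 2-fold under both scalings in both. Of the 13 tethers, 10 were lower by over 2-fold in the xbp1, 10 in the atf6, 3 in the srebf1 and 3 in the srebf2 double mutant and 9 in the libraries labelled atf4a/b. Of all genes tested, 19.0%, 22.1%, 21%, 34.0% and 21% were lower in the same order, so the counts in the srebf1 and srebf2 double mutants were near or below that share. With factors from highly expressed genes the counts were 3, 7, 3, 5 and 6, beside 4.28%, 6.03%, 23.2%, 39.6% and 8.0% of all genes tested. trappc6a and trappc4 were lower under both scalings in 4 of the 5 double mutants, all but xbp1. trappc4 had 62.2 CPM in the atf6, 206.3 CPM in the srebf1 and 116.4 CPM in the srebf2 double mutant and 61.9 CPM in the libraries labelled atf4a/b, against 450.5 CPM in sec31anju221. trappc1 and trappc3 were lower under both scalings in the xbp1 and atf6 double mutants and in the libraries labelled atf4a/b, and trappc3 also in the srebf1 double mutant.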
